A study of Danio rerio with 13 samples.

Results

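The genes described here code for subunits of the proteasome, for enzymes and receptors that attach ubiquitin, for the ATPase VCP, and for calpains and a mitochondrial protease, as measured in the tail of zebrafish larvae. They were taken by the first letters of the gene symbol (psma to psmg, ube2, uba, ubb, ubc, uch, usp, cul, fbx, cts, capn and clp, or vcp and lonp1 in full, with mdm2 left out) from the array probes that the lists of changed probes pair with a RefSeq mRNA. This gave 26 genes, covered by 31 probes, of 570 genes that could be named and of 19523 probes measured. The reference table holds 300 zebrafish genes that meet the same rule. Only a probe that changed in at least 1 comparison carries a name, so the other genes of these families are not described here. Counts of changed genes among the 26 are therefore descriptions, without a test of the group. Of the 26, 15 have a name through the comparison of D1D2MO with SCMO alone, psmb4 through D3MO against SCMO alone and fbxo42 through D3MO against D1D2MO alone.

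Deiodinases set the local level of thyroid hormone. Types 1 and 2 can convert the prohormone T4 into the active T3, and type 3 inactivates both. Embryos of the wild-type WIK strain had received an injection of a morpholino against the dio3b form of type 3 (D3MO), of morpholinos against types 1 and 2 together (D1D2MO), or of a standard control morpholino (SCMO). Morpholinos are synthetic antisense oligomers. Those used here block translation for the first days of development, in the whole animal, and the mRNA of the target does not show whether the knockdown worked. Tails were collected at 72 hours post fertilization (hpf), pooled by 20 per the labels although the methods give a larger pool, and compared on 13 2-colour arrays. There were 4 arrays of D3MO with SCMO, 5 of D1D2MO with SCMO and 4 of D3MO with D1D2MO. Per the methods, the 4 biological replicates of each group were each labelled with both dyes. The arrays held 8 channels of D3MO and 9 each of D1D2MO and SCMO, so pools were used on more than 1 array. D3MO was on Cy5 in 5 channels and on Cy3 in 3, so the dyes were not fully balanced. The arrays were therefore not all independent pools, and the p-values may partly measure technical spread. Values per array were not used here. Each value below is the log2 fold change of the authors' deposited limma fit ± its standard error (SE), with a p-value adjusted over all 19523 probes. Genes were called changed where the adjusted p was under 0.05 and the level differed by more than 1.5-fold, and the brightest probe stands for a gene unless stated.

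Proteins destined for degradation are tagged with ubiquitin by a cascade of an activating enzyme (E1), a conjugating enzyme (E2) and a ligase (E3). The 26S proteasome then binds the tagged protein through its 19S cap, unfolds it with a ring of ATPases and cuts it inside the 20S core, a stack of rings of alpha and beta subunits. Calpains are calcium-dependent proteases of the cytosol that cut proteins, sarcomere proteins among them, at a few sites. In skeletal muscle, the main tissue of the larval tail, both systems take part in the turnover of contractile proteins.

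The named proteasome subunit transcripts were higher in both knockdowns, and by less in D3MO than in D1D2MO for nearly all of them. Most of them have a name through D1D2MO against SCMO alone, a choice that favours the larger value in D1D2MO. In D3MO, 4 of the 17 named subunits were changed, all higher, with a median log2 fold change over the 17 of 0.51 and a range of 0.29 to 0.69. In D1D2MO, 16 of the 17 were changed, again all higher, with a median of 0.73 and a range of 0.36 to 0.99. The medians over all probes were -0.01 in D3MO and 0.00 in D1D2MO, and of all probes 1.40% were called higher in D3MO and 2.35% in D1D2MO. Without the fold threshold, all 17 subunits passed the adjusted p of 0.05 as higher in D3MO, against 15.6% of all probes higher and 14.9% lower. All 17 likewise passed as higher in D1D2MO, against 14.1% of all probes higher and 6.86% lower. Over all 26 genes, 6 were called higher in D3MO and 22 in D1D2MO. None of the 26 was called lower by limma's test in either knockdown, with or without the fold threshold. With it, 0.579% of all probes were called lower in D3MO and 0.0102% in D1D2MO. Because the names come from the called lists, these values also have to be set beside those of the 570 named genes, whose medians were 0.29 in D3MO and 0.52 in D1D2MO. Of the named genes, 26.3% were called higher in D3MO and 46.7% in D1D2MO, and without the fold threshold 56.1% in D3MO and 66.0% in D1D2MO.

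**Figure D1:**
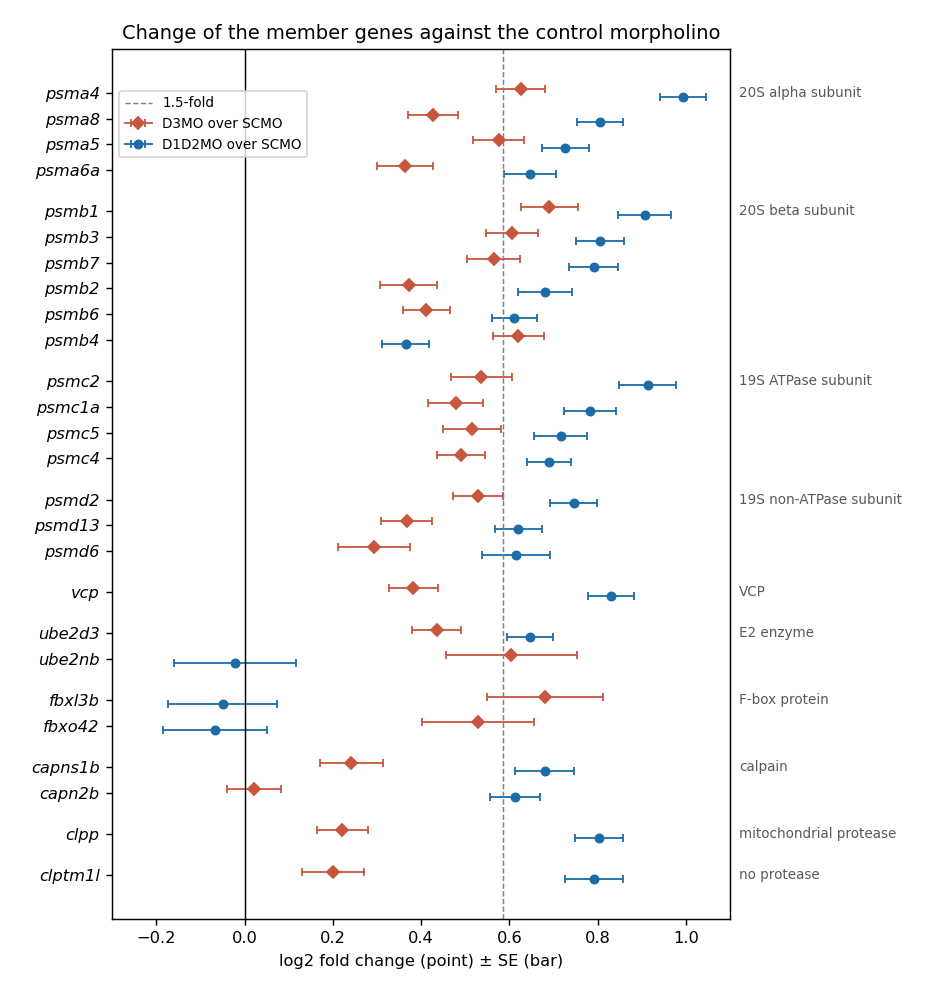
Log2 fold change (points, ± SE) of the 26 genes in D3MO over SCMO (diamonds) and in D1D2MO over SCMO (circles), grouped by role. The diamond lies left of the circle for 16 of the 17 proteasome subunits, the exception being psmb4, and the 3 genes with the longest bars, ube2nb, fbxl3b and fbxo42, have circles near 0.

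Marker genes of several tissues also differed between the groups, not all in the direction of the proteasome genes. A marker has a name only where a probe of it was on a list of changed probes. The lists were also chosen with earlier results known, so counts of called markers are descriptions, without a test. Of all 570 named genes, 26.3% were called higher in D3MO and 46.7% in D1D2MO, and 40.2% lower in D3MO than in D1D2MO. All 11 listed fast muscle genes had a name. In D3MO, 7 of them were called higher, and all 11 lay between 0.18 and 1.13. In D1D2MO all 11 were called higher, at 0.64 to 2.17. The 2 slow muscle genes that had a name, smyhc2 and smyhc3, were called higher in D1D2MO and not in D3MO. Of the 13 listed genes of liver and yolk, which per the methods went with the abdomen when the larvae were cut, 5 had a name, of which 0 were called in D3MO, at -0.41 to 0.39, and all 5 were called higher in D1D2MO, at 0.79 to 1.33. Of 8 epidermal genes 5 had a name, of which 1 was called higher in D3MO and 4 in D1D2MO, and the 4 named globin genes were called higher in D3MO, 2 of them also in D1D2MO. Of 6 neuronal genes 3 had a name, 2 of which were called lower in D3MO. Of the leukocyte markers lyz alone had a name, at -0.45 in D3MO and 0.36 in D1D2MO, called in neither, and no osteoclast or intestine marker had one. In D3MO against D1D2MO, 4 of the 11 fast muscle genes were called lower, 1 of the 2 slow muscle genes, 4 of the 5 of liver and yolk, which lay between -1.74 and -0.44, and 2 of the 5 of epidermis. Also called lower there were 2 of the 3 neuronal genes and lyz, at -0.81, and 1 of the 4 globin genes was called higher. In RNA of whole tails, a larger share of a tissue and more transcript per cell cannot be told apart, and the part of tissue composition in the changes of the proteasome and protease genes was not tested.

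The alpha subunits form the outer rings of the 20S core, through which substrates enter. In D3MO only psma4 of the 4 named ones was changed, at 0.63 ± 0.06 (adjusted p = 0.000209). psma5 fell just short of the fold threshold there, at 0.58 ± 0.06 or 1.49-fold, and psma8 and psma6a were at 0.43 and 0.36. In D1D2MO all 4 were changed. By the brightest probe of each gene, psma4 had the largest change of the 26 genes in D1D2MO, at 0.99 ± 0.05 (adjusted p = 6.94e-06). This is a 1.99-fold level with a 95% interval of 1.83 to 2.16 and position 109 from the top among all probes. The dimmer probe of clpp lay higher, at 1.16. psma8, in mammals an alpha subunit of the testis proteasome, stood at 0.80 ± 0.05 (adjusted p = 2.15e-05) and psma5 at 0.73 ± 0.05 (adjusted p = 3.88e-05). psma6a was at 0.65 ± 0.06.

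The beta subunits form the inner rings, and psmb6 and psmb7 belong to those that carry a catalytic site. In D3MO, 3 of the 6 named ones were changed, namely psmb1 at 0.69 ± 0.07 (adjusted p = 0.000268), psmb4 at 0.62 ± 0.06 (adjusted p = 0.000247) and psmb3 at 0.61 ± 0.06 (adjusted p = 0.00029). psmb7, psmb6 and psmb2 were at 0.56, 0.41 and 0.37. In D1D2MO, 5 of the 6 were changed. The largest values there were those of psmb1 at 0.91 ± 0.06 (adjusted p = 2.37e-05), psmb3 at 0.81 ± 0.05 (adjusted p = 2.47e-05) and psmb7 at 0.79 ± 0.06 (adjusted p = 3.15e-05). psmb2 was at 0.68 ± 0.06, and psmb6 lay just inside the threshold at 0.61 ± 0.05, a 1.53-fold level.

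psmb4, a structural beta subunit, was the only proteasome gene of the rule with a higher value in D3MO than in D1D2MO, and it was covered by 3 probes. From the brightest to the dimmest, these gave 0.62 ± 0.06, 0.69 ± 0.05 and 0.62 ± 0.07 in D3MO, all changed, and 0.36 ± 0.05, 0.34 ± 0.05 and 0.45 ± 0.06 in D1D2MO, none past the fold threshold. The lowest of the 3 in D3MO thus lay above the highest in D1D2MO. However, each of the 3 has a name only because it was called in D3MO against SCMO. That all 3 were changed there follows from this choice, which also favours the higher value in D3MO. The 3 probes were read on the same arrays and are not replicates. The difference of D3MO from D1D2MO was 0.26 ± 0.06 (adjusted p = 0.0109), 0.36 ± 0.05 (adjusted p = 0.00157) and 0.17 ± 0.07 (adjusted p = 0.0842) on the log2 scale, so that 2 of the 3 probes passed the adjusted p of 0.05 and none the fold threshold.

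In the 19S cap, the psmc genes code for ATPases that unfold the substrate and the psmd genes for other subunits, of which psmd2 belongs to the base and psmd6 and psmd13 to the lid. Of the 7 named genes, 0 were called in D3MO, although all 7 passed the adjusted p of 0.05 there, and all 7 were called in D1D2MO. Each of the 7 has a name through D1D2MO against SCMO alone. The counts of calls in both knockdowns therefore follow from this choice. Among the ATPases, the values in D3MO kept to a range of 0.48 for psmc1a to 0.54 for psmc2. In D1D2MO psmc2 stood at 0.91 ± 0.06 (adjusted p = 3.17e-05), psmc1a at 0.78 ± 0.06 (adjusted p = 4.18e-05), psmc5 at 0.72 ± 0.06 (adjusted p = 8.44e-05) and psmc4 at 0.69 ± 0.05. Among the other cap subunits, psmd2 was at 0.53 in D3MO, psmd13 at 0.37 and psmd6, the lowest of the 17 subunits, at 0.29 ± 0.08 (adjusted p = 0.0269). In D1D2MO psmd2 was at 0.75 ± 0.05 (adjusted p = 3.21e-05), psmd13 at 0.62 ± 0.05 (adjusted p = 8.75e-05) and psmd6 at 0.61 ± 0.08 (adjusted p = 0.000689). The 20S subunits had medians of 0.57 in D3MO and 0.76 in D1D2MO, and the 19S subunits of 0.49 in D3MO and 0.72 in D1D2MO. This gap between both parts of the particle was not tested. The parts were also not chosen alike, since 4 of the 10 core genes and 0 of the 7 cap genes were called in D3MO. Such a choice by itself favours higher values of the core in D3MO.

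Within each knockdown the subunits were put in the order of their values, where most neighbours lay close together. In D3MO no step between neighbours in the order of the 17 exceeded the SE of their difference, and the widest was 0.07. That SE was computed from the SE of both genes as if they were independent, which probes read on the same arrays need not be. In D1D2MO, 2 of 16 steps did, the widest being 0.25, between psmb6 and psmb4. In D3MO the first 6 places were those of the core subunits psmb1, psma4, psmb4, psmb3, psma5 and psmb7 and the next 5 those of the cap subunits psmc2, psmd2, psmc5, psmc4 and psmc1a. Below them came the core subunits psma8, psmb6, psmb2 and psma6a, at places 12, 13, 14 and 16. The cap subunits psmd13 and psmd6 took places 15 and 17, so core and cap were not separated over the whole order. Most neighbours did not differ beyond their errors. Sorting by itself makes such steps small, so they do not show whether subunits further apart differ. From the first to the last place the values spanned 0.40 in D3MO and 0.63 in D1D2MO.

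**Figure D2:**
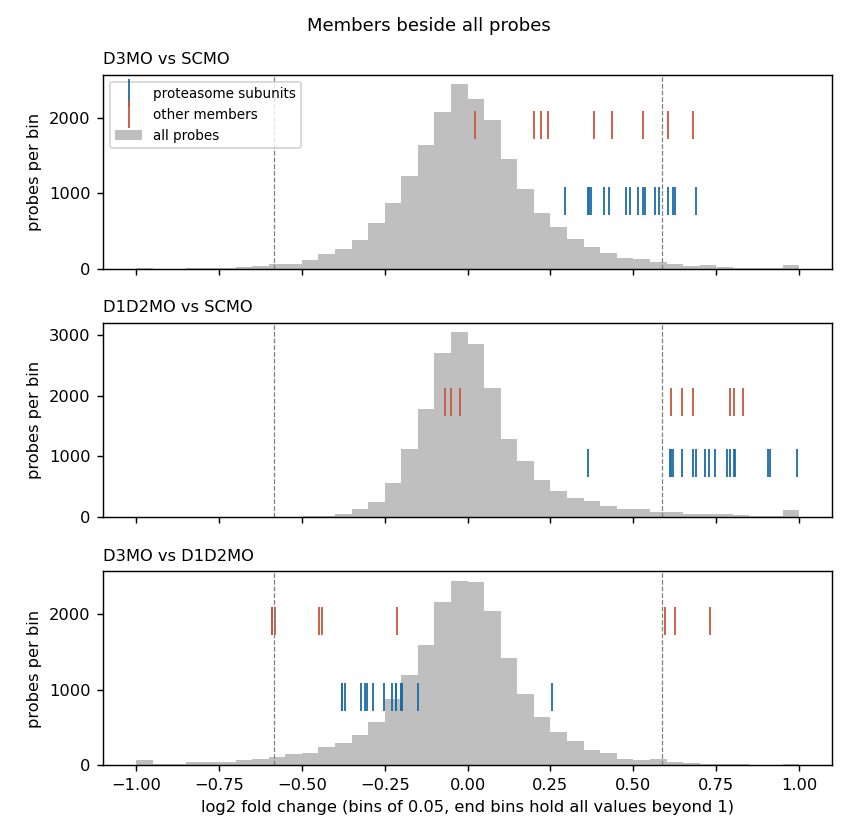
Number of probes per bin of log2 fold change (grey, bins of 0.05) in the 3 comparisons, with a tick for each proteasome subunit (lower row of ticks) and for each of the other genes (upper row); the height of the ticks carries no value. The ticks of the subunits lie between 0.29 and 0.69 in D3MO and between 0.36 and 0.99 in D1D2MO, in the right-hand tail of all probes, and dashed lines mark 1.5-fold.

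Set beside the other genes that were chosen in the same way, the proteasome subunits had larger values in D3MO. The 244 other named genes called higher in D1D2MO had a median log2 fold change of 0.28 in D3MO, and 62.3% of them passed the adjusted p of 0.05 as higher there. All 16 proteasome subunits called higher in D1D2MO lay above that median, with a median of 0.50, and all 16 passed. Of the 6 other genes described here that were called higher in D1D2MO, ube2d3 and vcp lay above it and capn2b, capns1b, clpp and clptm1l did not. Both comparisons share the SCMO samples, and the position of the subunits among the 244 genes was not tested.

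The direct comparison of D3MO with D1D2MO called none of the 17 subunits by limma's test, where 0.912% of all probes were called higher in D3MO and 2.28% lower. Without the fold threshold, 15 of the 17 were lower in D3MO than in D1D2MO at an adjusted p under 0.05 and psmb4 was higher, against 17.3% of all probes lower and 12.1% higher. For psma5 the difference was -0.15 ± 0.06 (adjusted p = 0.0822), with a 95% interval of 0.82 to 0.99-fold before adjustment. The largest differences of subunits were those of psma8 at -0.38 ± 0.06 (adjusted p = 0.00149), psmc2 at -0.38 ± 0.07 (adjusted p = 0.00426) and psma4 at -0.37 ± 0.06 (adjusted p = 0.00162). At the other end, psmc4, psmb6, psmb3 and psmc5 each stood at -0.20. The remaining subunits psmd6, psmb2, psmc1a, psma6a, psmd13, psmb7, psmd2 and psmb1 lay between -0.32 for psmd6 and -0.22 for psmb1. For comparison, 69.1% of all named genes were lower and 26.1% higher in D3MO at the same adjusted p. Of the 244 other named genes called higher in D1D2MO, 91.8% were lower in D3MO there, with a median of -0.52. Of the 16 subunits called higher in D1D2MO, 15 were lower, or 93.75%, with a median of -0.24. The share of lower subunits was thus near that of genes chosen in the same way.

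**Figure D3:**
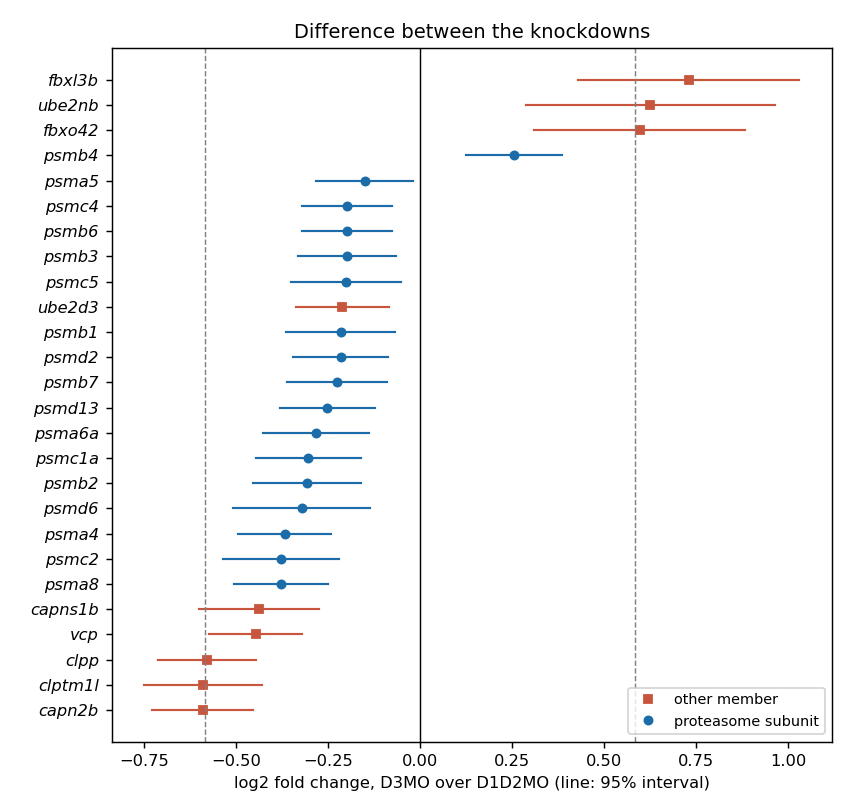
Log2 fold change of D3MO over D1D2MO for the 26 genes, with lines for the 95% interval of each gene and dashed lines at 1.5-fold in either direction. Of the proteasome subunits, psmb4 at 0.26 is the only one right of 0, and fbxl3b, ube2nb and fbxo42 at the top have the widest intervals.

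The genes outside the proteasome did not share 1 pattern, and their patterns follow at least partly from the comparison that gave each its name. vcp and ube2d3 have a name through D1D2MO against SCMO alone, a choice that favours the larger value in D1D2MO. Of the 244 other named genes called higher in D1D2MO, 91.8% were also lower in D3MO than in D1D2MO at an adjusted p under 0.05. vcp codes for the ATPase that pulls ubiquitin-tagged proteins out of membranes and complexes and hands them to the proteasome. In D3MO it was at 0.38 ± 0.06 (adjusted p = 0.00175), short of the fold threshold, and in D1D2MO it was changed, at 0.83 ± 0.05 (adjusted p = 1.76e-05). The difference of D3MO from D1D2MO was -0.45 ± 0.06 (adjusted p = 0.000608), past the adjusted p but not the fold threshold. ube2d3, a conjugating enzyme that works with many ligases, was at 0.43 ± 0.06 in D3MO (adjusted p = 0.00102) and at 0.65 ± 0.05 in D1D2MO (adjusted p = 5.94e-05). Its difference between the knockdowns, -0.21 ± 0.06 (adjusted p = 0.0202), was within the range of those of the proteasome subunits.

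The 2 named genes of 19 listed calpain and calpastatin genes were higher in D1D2MO than in SCMO and lower in D3MO than in D1D2MO. capns1b has a name through D1D2MO against SCMO alone, and capn2b through that comparison and D3MO against D1D2MO. These directions therefore follow at least partly from the choice. Of the 244 other named genes called higher in D1D2MO, 91.8% were also lower in D3MO than in D1D2MO at an adjusted p under 0.05. capn2b codes for a catalytic calpain subunit and was covered by 2 probes, at 0.02 ± 0.06 (adjusted p = 0.819) and 0.05 ± 0.07 (adjusted p = 0.591) in D3MO. In D1D2MO the same probes stood at 0.61 ± 0.06 (adjusted p = 0.000123) and 0.80 ± 0.06 (adjusted p = 6.2e-05). The difference of D3MO from D1D2MO was -0.59 ± 0.06 (adjusted p = 0.000231) and -0.75 ± 0.07 (adjusted p = 0.00014), called by both probes. capns1b, a small regulatory calpain subunit, was at 0.24 ± 0.07 in D3MO (adjusted p = 0.0329) and at 0.68 ± 0.07 in D1D2MO (adjusted p = 0.000183). Its difference was -0.44 ± 0.07 (adjusted p = 0.00237), a fold of 0.738 that did not pass the threshold.

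clpp codes for the proteolytic subunit of the ClpXP protease of the mitochondrial matrix. In D3MO its brighter probe was at 0.22 ± 0.06 (adjusted p = 0.0215) and its dimmer probe at 0.28 ± 0.06 (adjusted p = 0.00685). In D1D2MO both were called, the brighter at 0.80 ± 0.05 (adjusted p = 2.57e-05) and the dimmer at 1.16 ± 0.05 (adjusted p = 4.29e-06). The difference of D3MO from D1D2MO was -0.58 ± 0.06 (adjusted p = 0.000217) by the brighter probe, just outside the fold threshold, and -0.88 ± 0.06 (adjusted p = 2.76e-05) by the dimmer, which was called. clptm1l, a membrane protein that is no protease and was taken by the first letters of its symbol, was at 0.20 ± 0.07 in D3MO (adjusted p = 0.059) and at 0.79 ± 0.07 in D1D2MO (adjusted p = 7.14e-05). Its difference of -0.59 ± 0.07 (adjusted p = 0.000496) was called. The brighter probe of clpp has a name through D1D2MO against SCMO alone. The dimmer one and the probe of clptm1l have theirs through that comparison and D3MO against D1D2MO. The directions of both genes therefore follow at least partly from the choice. By their brightest probe, capn2b and clptm1l were the only genes of the 26 called lower in D3MO than in D1D2MO, and neither was after centring on the median of all probes, which was -0.02 in that comparison.

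psmb7 was the other gene with several probes. Its brighter probe gave 0.56 ± 0.06 in D3MO and 0.79 ± 0.06 in D1D2MO, and its dimmer probe 0.63 ± 0.06 in D3MO and 0.86 ± 0.06 in D1D2MO. The dimmer probe was thus called in D3MO (adjusted p = 0.000265) and the brighter was not, at 1.48-fold against the threshold of 1.5. In psmb4, psmb7, capn2b and clpp alike, the named probes of a gene shared the order of the knockdowns. Each of these probes has a name only because it was called, and a probe of the same gene without a call could not be seen. The shared order therefore follows at least partly from the choice.

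**Figure D4:**
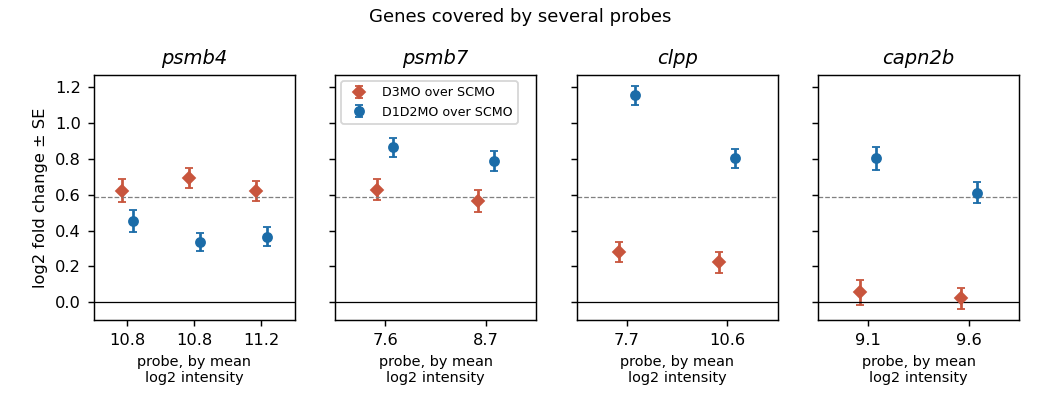
Log2 fold change ± SE of each probe of the 4 genes covered by several probes, in D3MO over SCMO (diamonds) and D1D2MO over SCMO (circles), with probes ordered by mean log2 intensity and a dashed line at 1.5-fold. Every named probe of psmb4 has the higher value in D3MO, and every named probe of psmb7, clpp and capn2b in D1D2MO.

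The 3 genes called higher in D3MO than in D1D2MO were fbxl3b at 0.73 ± 0.13 (adjusted p = 0.00395), ube2nb at 0.63 ± 0.15 (adjusted p = 0.0136) and fbxo42 at 0.60 ± 0.13 (adjusted p = 0.00819). fbxl3b and fbxo42 code for F-box proteins, which choose the substrates of cullin-based ligases, and ube2nb for a conjugating enzyme that builds ubiquitin chains used in signalling and DNA repair. Against SCMO, fbxl3b was at 0.68 ± 0.13 in D3MO (adjusted p = 0.00611), ube2nb at 0.60 ± 0.15 (adjusted p = 0.0163) and fbxo42, short of the fold threshold, at 0.53 ± 0.13 (adjusted p = 0.0145). In D1D2MO fbxl3b was at -0.05 ± 0.12 (adjusted p = 0.82), ube2nb at -0.02 ± 0.14 (adjusted p = 0.935) and fbxo42 at -0.07 ± 0.12 (adjusted p = 0.731). fbxl3b and ube2nb have a name only through D3MO against SCMO and D3MO against D1D2MO, and fbxo42 through the latter alone. Such a choice favours a higher value in D3MO, so these calls follow at least partly from it.

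These 3 genes shared their values with many unrelated ones. Their SE in D1D2MO was 0.12 to 0.14, against 0.05 to 0.08 for the other 23 genes, and an SE above 0.10 was found for 1.81% of all probes and 11.7% of those on the called lists. Of the 179 listed probes with a mean log2 intensity above 12, 56 had such an SE. Of those 56, 51 lay between 0.50 and 0.78 in D3MO and between -0.10 and 0.01 in D1D2MO, the probes of fbxl3b, ube2nb and fbxo42 among them. The limits of this set were chosen after its values had been seen. The 30 probes of the set that have a name stand for 29 genes, which include mrpl20 of the mitochondrial ribosome, mybpc2b of fast muscle, the kinase gene tbk1, and rad23ab, whose product shuttles tagged proteins to the proteasome. Whether these probes measured the genes they are named for was not tested. Without the 3 genes, 4 of 23 were called higher in D3MO than in SCMO, and 0 were called higher and 2 lower in D3MO than in D1D2MO.

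**Figure D5:**
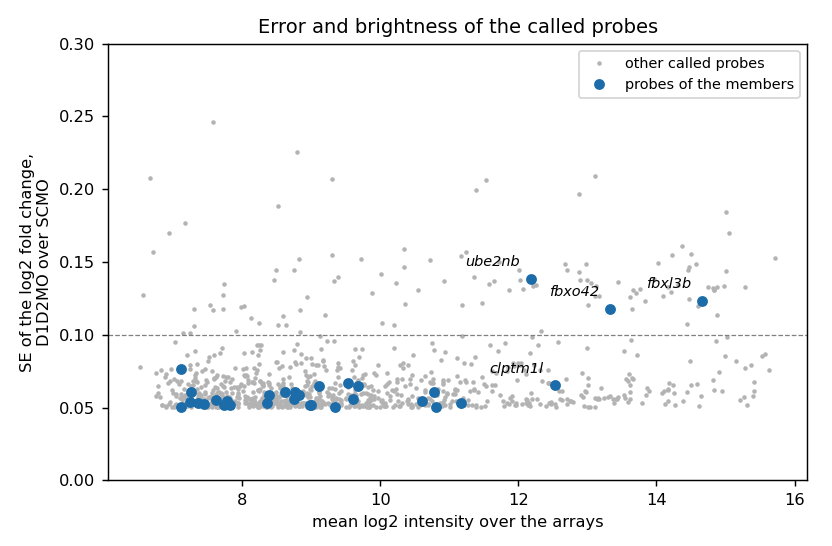
SE of the log2 fold change of D1D2MO over SCMO against mean log2 intensity over the arrays, for the probes of the 26 genes (large points) and the other listed probes (small points), with a dashed line at an SE of 0.10. The probes of ube2nb, fbxo42 and fbxl3b lie above 0.10 at intensities above 12, and clptm1l is the only other of the 26 genes above 12.

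Few other genes of these pathways have a name in the lists. adrm1, a ubiquitin receptor of the 19S cap whose symbol the rule does not take, was changed in D3MO at 0.65 ± 0.07 (adjusted p = 0.000537), against 0.16 ± 0.07 in D1D2MO (adjusted p = 0.123). Its difference of D3MO from D1D2MO was 0.49 ± 0.07 (adjusted p = 0.00147), so that adrm1, like psmb4, had its higher value in D3MO. Both genes have a name only through D3MO against SCMO, a choice that favours a higher value in D3MO. rnf10, a RING-type ubiquitin ligase, was lower in D3MO by both of its probes, at -0.92 ± 0.06 (adjusted p = 3.86e-05) and -0.77 ± 0.05 (adjusted p = 7.66e-05), which are positions 11 and 27 from the bottom among all probes. In D1D2MO these probes were at -0.08 ± 0.05 and 0.01 ± 0.05, and the difference of D3MO from D1D2MO, at -0.83 and -0.78, was called for both. keap1b, the adaptor through which a cullin ligase binds the transcription factor Nrf2, was one of the 51 very bright probes, at 0.55 ± 0.16 in D3MO and -0.07 ± 0.14 in D1D2MO. The ligase gene ube3a was listed but did not pass the adjusted p, at -0.64 ± 0.22 in D3MO against D1D2MO (adjusted p = 0.0615).

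By role, names were found for 4 of 11 listed alpha subunits, 6 of 17 beta subunits, 4 of 7 cap ATPases and 4 of 18 other cap subunits, adrm1 included. Only 10 of the listed alpha and 14 of the listed beta symbols occur in the reference used for names, so the others could not be found. Of 39 listed E2 genes 2 had a name, of 84 cullin and F-box genes 2, and of 19 calpain and calpastatin genes 2. The lists named no gene among 11 proteasome activators, inhibitors and assembly factors, 12 genes of ubiquitin and E1 enzymes, 65 deubiquitinases, 27 cathepsins and lysosomal partners and 16 autophagy genes.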

How the data were processed

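The authors quantified the spots of 2-colour Agilent arrays with GenePix, left out spots that no array measured above background, applied a normal-exponential background correction, normalised each array by loess and fitted linear models with limma and empirical Bayes. For limma no version is given in the sources used here. The files used here hold the authors' own comparisons. Of these, the deposited log2 fold changes and the mean log2 intensity of each called probe were taken as they stand. The p-values were deposited unadjusted for all 19523 probes and adjusted for the called ones. As a score, the authors deposited limma's moderated t for the called probes. The terms and arrays of their fit are not settled here.

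The SE is the log2 fold change divided by t, where t of the other probes was recovered from p with the 8.72 degrees of freedom that the deposited values imply. The Benjamini-Hochberg adjustment was recomputed over all probes and differed from the deposited values by at most 0.436%. Across the lists, 4 entries did not pass the adjusted p of 0.05 and were not counted. Of the 995 probes on the lists, 784 matched 1 gene of a RefSeq table of assembly GRCz12tu, used for names alone. The contrast of D3MO with D1D2MO is the difference of the contrasts with SCMO, and all 3 share samples. The number of pools and arrays limits the precision, and background per probe was not analysed here.

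The genes, role lists and alternatives were chosen with earlier results of these data known. Every gene is named, with full statistics for those called between the knockdowns and for up to 3 called genes per role and knockdown with the largest change. Alternatives were other thresholds and adjustments, the mean or the dimmest probe of a gene, centring on the median of all probes and leaving out clptm1l. Leaving out genes with a wide SE or dim probes was chosen after seeing the data. Recovery of t and the calls were tested on simulated data. Python 3.11.15, numpy 2.4.6, scipy 1.17.1 and pandas 2.3.3 were used.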

Additional observations from a re-analysis of the deposited data

Results flagged for a closer look

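For 5 of the 26 genes the change in D3MO differed from that in D1D2MO past both thresholds, by limma's test of the difference. Each of the 5 has a name through this comparison, alone or with another, so these calls follow from the choice. Of all probes, 0.912% were called higher and 2.28% lower in D3MO than in D1D2MO. Of the 570 named genes, 17.7% were called higher and 40.2% lower there. capn2b at -0.59 and clptm1l at -0.59 on the log2 scale were lower in D3MO than in D1D2MO, both just past the fold threshold of 0.58. fbxl3b at 0.73, ube2nb at 0.63 and fbxo42 at 0.60 were higher in D3MO, and all 3 belong to the set of 51 very bright probes with a wide SE and nearly equal values, whose part in these differences was not tested.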

How the results depend on the processing

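With a fold threshold of 2, 0 genes were called by their brightest probe in each of the 3 comparisons. The dimmer probe of clpp, at 2.23-fold in D1D2MO against SCMO, lay above that threshold. Without a fold threshold, 24 genes passed in D3MO against SCMO and 25 in D3MO against D1D2MO, and of all probes measured, 5963 passed in D3MO against SCMO, 4101 in D1D2MO against SCMO and 5738 in D3MO against D1D2MO. In D3MO against D1D2MO, 3 genes were called under the Benjamini-Yekutieli adjustment. There, 3 were also called after centring on the median of all probes, which moved capn2b to -0.58 and clptm1l to -0.57, outside the fold threshold, and 2 were called without the genes whose SE exceeded 0.10. By the mean over probes, psmb7 was also called in D3MO, at 0.60, and clpp between the knockdowns, at -0.73. The other counts of genes kept within 1.5 times the reported ones, and no gene changed direction under centring or averaging of probes. Leaving out the dimmest probes of the whole table was not run, because mean intensities were used for called probes only. No paired analysis was possible because no values per array were used here, and for the same reason no replicate was left out in turn.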
